A study of Homo sapiens with 17 samples.

Results

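ANK2 and CAMK2D are adjacent genes on human chromosome 4. They were chosen by symbol, and with their values in these comparisons already known, as 2 of the 1400 genes listed in at least 1 of the 4 comparisons of the series. ANK2 (ENSG00000145362) was listed in all 4 and CAMK2D (ENSG00000145349) in 3. Because listing and size of decrease led to the choice, the values of both genes are a description and carry no test.

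RNA was sequenced from PC3, an established human prostate cancer cell line derived from a bone metastasis. Early-passage cells were harvested 7 days after infection. Lentivirus carried MED25 shRNA A (3 libraries), MED25 shRNA B (3 libraries) or a luciferase shRNA as control (3 libraries). Retrovirus carried ETV4 shRNA A (3 libraries), ETV4 shRNA B (3 libraries) or a control shRNA (2 libraries), although the design text of the series speaks of an empty vector. These shRNAs are called shMED25-A, shMED25-B, shETV4-A and shETV4-B below. Both shRNAs of a target were compared with the same control libraries, so their values are not independent. MED25 is a subunit of the Mediator complex, which links transcription factors to RNA polymerase, and ETV4 is a transcription factor of the ETS family. The title of the series asks which genes the pair may regulate together.

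Ankyrin-B, the product of ANK2, is an adaptor that ties membrane proteins to the spectrin skeleton under the plasma membrane. Its known partners include the sodium-calcium exchanger and the inositol trisphosphate receptor, and inherited loss of its function causes cardiac arrhythmia. CAMK2D encodes the delta subunit of calcium/calmodulin-dependent protein kinase II, a serine/threonine kinase that is switched on by calcium-loaded calmodulin and can then hold itself active by autophosphorylation. It is best studied in heart muscle, where calcium channels and pumps are among its substrates.

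Values are log2 ratios of knockdown to control taken from the authors' deposited tables, which give no error per gene and no value per library. The direction was read from the library numbers in the headers and from the sign of the gene each shRNA targets, so the decrease of the targeted genes is no separate check of it. On this reading all listed genes were lower, and the smallest listed decrease was close to 1.50-fold in each table. The tables give no expression levels, so the identity of the cells could not be checked on markers; of KRT8, KRT18, KRT19, EPCAM, CDH1 and KLK3, only KRT19 was listed, at −0.61 with shMED25-B in the authors' deposited table. A gene that is not listed may have changed by less, have risen or have missed the authors' minimum score, so it cannot be called unchanged. Fewer cells expressing a gene and less of its RNA per cell cannot be told apart in these bulk samples.

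The 2 genes are read from opposite strands and converge, with their ends facing each other. ETV4 binds the ETS core GGAA, and the 250 bases before the annotated start sites are shown because ANK2 was lower with both ETV4 shRNAs and CAMK2D with shETV4-A. RefSeq (GRCh38.p14) gave 10 start sites for ANK2 and 1 for CAMK2D. The first line is the most upstream ANK2 start (chr4:112705372-112705621, plus strand), the second the ANK2 start nearest the gene start in GENCODE 29, which lies inside the gene as RefSeq draws it (chr4:112817855-112818104, plus strand), and the third CAMK2D (chr4:113761739-113761988, minus strand). They are written 5′ to 3′ on the strand of the gene, and capitals mark GGAA on either strand (TTCC where it lies on the other strand).
ANK2 upstream start: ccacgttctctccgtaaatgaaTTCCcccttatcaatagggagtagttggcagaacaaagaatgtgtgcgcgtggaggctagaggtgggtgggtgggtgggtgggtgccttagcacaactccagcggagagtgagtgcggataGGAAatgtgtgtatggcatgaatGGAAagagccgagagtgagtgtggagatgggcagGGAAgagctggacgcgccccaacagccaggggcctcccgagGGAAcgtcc
ANK2 inner start: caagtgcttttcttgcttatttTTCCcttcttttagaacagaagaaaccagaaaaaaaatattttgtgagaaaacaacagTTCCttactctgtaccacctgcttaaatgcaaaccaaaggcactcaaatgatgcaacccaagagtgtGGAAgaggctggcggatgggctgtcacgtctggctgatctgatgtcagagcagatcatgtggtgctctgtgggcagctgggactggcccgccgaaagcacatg
CAMK2D start: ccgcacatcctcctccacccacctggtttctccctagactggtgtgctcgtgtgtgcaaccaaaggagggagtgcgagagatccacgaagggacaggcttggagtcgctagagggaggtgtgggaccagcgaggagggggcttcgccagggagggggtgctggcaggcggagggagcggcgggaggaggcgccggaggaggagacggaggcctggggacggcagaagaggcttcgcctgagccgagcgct

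The upstream ANK2 window held 5 copies of GGAA and the inner one 3, while the CAMK2D window held none. Over the 10 ANK2 windows the count ran from 1 to 5, with a median of 3. Among 35116 RefSeq promoter windows of the same length, the median was also 3. Of these windows 92.7% held at least 1 copy and 7.26%, like that of CAMK2D, held none. At least 5 copies were present in 18.6% of windows. The longer ETS sequence CCGGAAG, in 8.52% of all windows, was in none of the 11 windows of the 2 genes. The AP-1 sequence TGANTCA, in 6.57% of all windows, was in 1 ANK2 window, and the E-box CACGTG, in 6.34%, was in none. All motifs were searched on both strands, and each CCGGAAG contains a GGAA. The CAMK2D window was 67.6% G and C, against 34.0% to 57.2% for those of ANK2. Matches are descriptions of letters and not binding sites, and no start site can be assigned to PC3 cells from these data.

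ANK2 was lowered more than 2-fold by every shRNA. ANK2 stood at −1.77, which is 29.3% of control, in the authors' deposited table for shMED25-A. The value was −1.84, which is 27.9% of control, in the authors' deposited table for shMED25-B. The authors' deposited tables for ETV4 knockdown gave −1.34 with shETV4-A, which is 39.6% of control, and −1.50 with shETV4-B, which is 35.4%. From the strongest decrease to the weakest the order was therefore shMED25-B, shMED25-A, shETV4-B, shETV4-A, and whether neighbours in this order differ was not tested, as no spread between libraries was analysed here.

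CAMK2D was lowered by less than ANK2 in each of its 3 comparisons. In the authors' deposited tables the value was −0.71 with shMED25-A, which is 61.2% of control, and −0.77 with shMED25-B, which is 58.7%. The authors' deposited table for shETV4-A put CAMK2D at −0.59, or 66.4% of control. That is 1.51-fold and lies just inside the listing limit, with 9 of the 495 genes of the table closer to it. The gene is missing from the table of shETV4-B, where the smallest listed decrease was −0.59 in the authors' deposited table. The step between shETV4-A, just inside the limit, and shETV4-B, not listed, can therefore be small.

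The distance between the 2 genes was similar with both MED25 shRNAs. From the authors' deposited tables, ANK2 minus CAMK2D was −1.06 with shMED25-A and −1.07 with shMED25-B on the log2 scale. The authors' deposited table for shETV4-A gave a difference of −0.75. The shared lentiviral controls enter both values for MED25 knockdown.

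Between the 2 shRNAs of a target, ANK2 differed by less than the targeted transcript, as did CAMK2D between those against MED25. CAMK2D could not be compared between those against ETV4, having no value with shETV4-B. MED25 itself was at −0.96 with shMED25-A and −1.71 with shMED25-B in the authors' deposited tables, so that B minus A was −0.76. The same step was −0.07 for ANK2 and −0.06 for CAMK2D in the authors' deposited tables. ETV4 was at −1.94 with shETV4-A and −2.67 with shETV4-B in the authors' deposited tables, a step of −0.73, against −0.16 for ANK2. ANK2 minus MED25 was −0.82 with shMED25-A and −0.13 with shMED25-B on the log2 scale in the authors' deposited tables, so ANK2 was reduced further than the target. ANK2 minus ETV4 was 0.60 with shETV4-A and 1.17 with shETV4-B in the authors' deposited tables, so here ANK2 was reduced less than the target. None of these differences was tested.

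**Figure D1:**
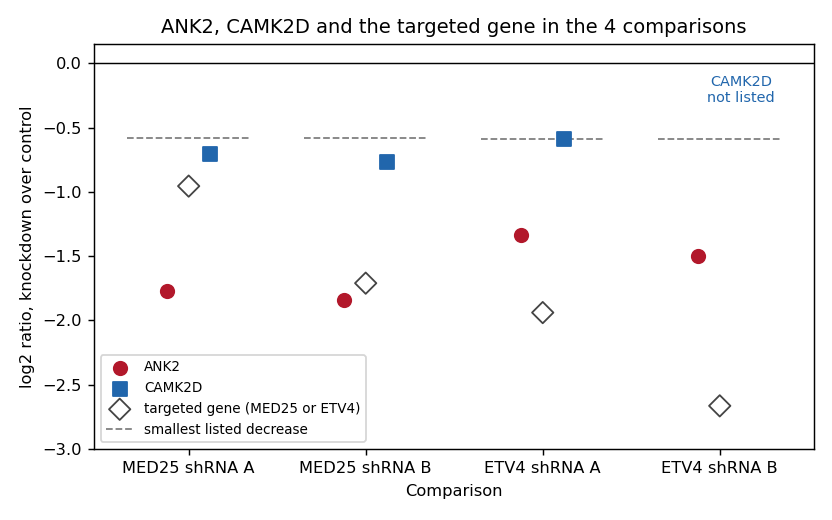
Log2 ratio of knockdown over control (vertical axis) in the 4 comparisons (horizontal axis) for ANK2 (circles), CAMK2D (squares) and the targeted gene (open diamonds), with a dashed line at the smallest decrease each table lists. ANK2 lies between −1.84 and −1.34 throughout. CAMK2D lies nearer the dashed line than ANK2, almost on it with shETV4-A only, and has no value with shETV4-B. The tables give no error.

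The share of genes listed gives the background for these decreases. Of 19864 protein-coding genes in GENCODE 29, 3.45% were listed with shMED25-A, 1.62% with shMED25-B, 2.17% with shETV4-A and 0.458% with shETV4-B. The sources used here do not give how many genes the authors tested, so the annotation stands in for it. Among listed genes, those lowered at least 2-fold made up 24.0% with shMED25-A, 20.1% with shMED25-B, 23.2% with shETV4-A and 20.4% with shETV4-B. ANK2 was among them in all 4 tables and CAMK2D in none, and since these values led to the choice of the genes, nothing further is read from that.

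By size of decrease ANK2 stood near the top of each table and CAMK2D in the middle or at the end. ANK2 was number 11 of 786 genes with shMED25-A and number 5 of 374 with shMED25-B in the authors' deposited tables. With shETV4-A it was number 45 of 495, and with shETV4-B number 7 of 98, in the authors' deposited tables. CAMK2D was number 511 of 786 with shMED25-A, 189 of 374 with shMED25-B and 486 of 495 with shETV4-A in the authors' deposited tables.

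Scores deposited beside the ratios ordered the genes differently. Their header names an adjusted p on a scale not stated, and they would rise with the evidence for a change if they are transformed p-values. CAMK2D had scores of 105, 125 and 106 with shMED25-A, shMED25-B and shETV4-A in the authors' deposited tables. ANK2 had 149, 185 and 77.5 in the same comparisons and 62.1 with shETV4-B in the authors' deposited tables. In the authors' deposited table for shETV4-A, CAMK2D thus had the higher score at a log2 decrease that was smaller by 0.75.

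Set against genes of similar decrease (log2 ratio within 0.1), CAMK2D had a high score. Its score exceeded that of 282 of 359 such genes with shMED25-A, 137 of 150 with shMED25-B and 122 of 139 with shETV4-A in the authors' deposited tables. The median scores of these genes were 63.4, 49.8 and 49.6. ANK2 had a low score for its decrease with shETV4-A, where it exceeded 2 of 25 such genes, and with shETV4-B, where it exceeded 0 of 3, in the authors' deposited tables. With shMED25-A it exceeded 4 of 8 and with shMED25-B 2 of 3 in the authors' deposited tables. The ETV4 comparisons had 2 control libraries and those of MED25 had 3, and the part of this in the scores was not tested.

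**Figure D2:**
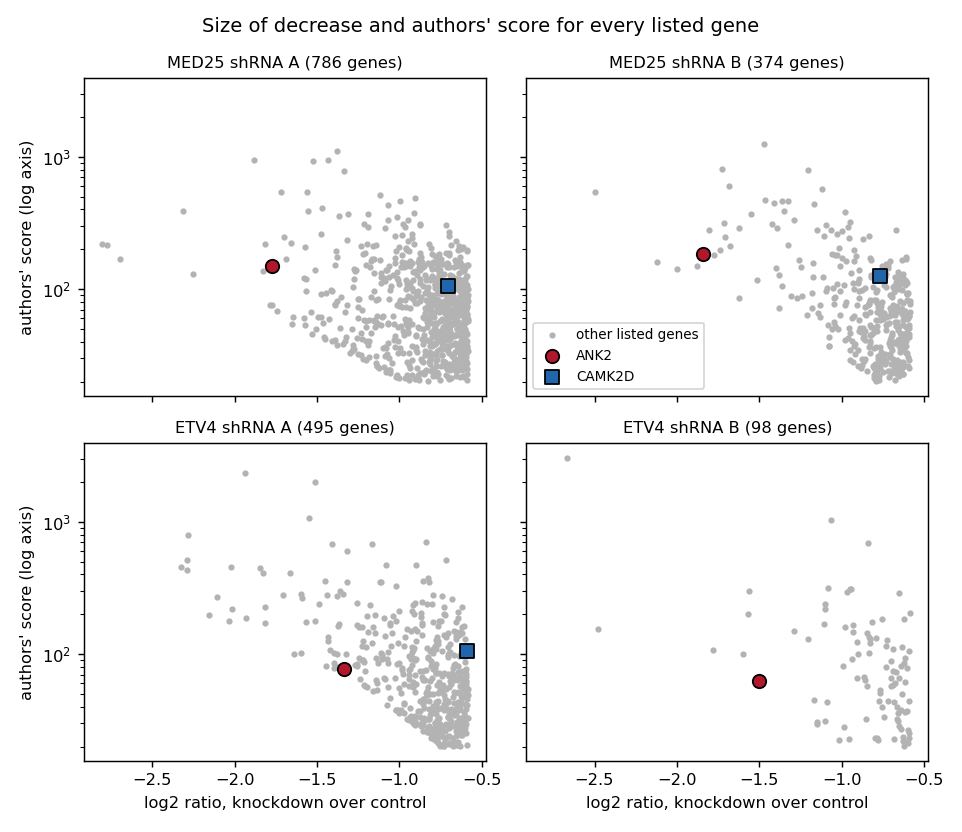
Each point is a gene of the authors' deposited tables, with its log2 ratio (horizontal axis) and the authors' score (vertical axis, logarithmic), in 1 panel per comparison; ANK2 is the large circle and CAMK2D the large square. In the ETV4 panels ANK2, with scores of 77.5 and 62.1, lies low among the few genes of similar decrease but not low in the whole table, and CAMK2D, with scores from 105 to 125, lies at the right edge with shETV4-A only.

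Of the 1400 listed genes, 1105 were in 1 table, 247 in 2, 38 in 3 and 10 in all 4. Among the 10, ANK2 was 1 of 3 genes lowered at least 2-fold in every table, with IGF2BP1, an RNA-binding protein, and the clone-named antisense transcript AC002456.2. Its weakest decrease, −1.34, followed those of IGF2BP1 at −1.88 and AC002456.2 at −1.56 in the authors' deposited tables. ANK2 also varied little: its highest and lowest values differed by 0.51, against 0.32 for the kinase gene CDK14, the smallest range of the 10, and 1.89 for the BMP antagonist NOG, the largest, in the authors' deposited tables.

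CAMK2D stood at the other end of its class. Of 25 genes listed with shMED25-A, shMED25-B and shETV4-A, it had the smallest mean decrease, −0.69, in the authors' deposited tables. Of the 25, 15 were not listed with shETV4-B, CAMK2D among them.

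The genes whose pattern came closest were named by the mean absolute difference of their log2 ratios over the tables concerned. For ANK2, over 4 tables and 9 candidate genes, these were AC002456.2 (mean absolute difference 0.31), the heparan sulfate proteoglycan SDC1 (0.35) and the potassium channel gene KCNK15 (0.44), from the authors' deposited tables. SDC1 was close to ANK2 with the MED25 shRNAs, at −1.88 and −1.73, and higher with those against ETV4, at −0.84 with each, in the authors' deposited tables. KCNK15 was at −1.69, −1.74, −2.29 and −0.86 with shMED25-A, shMED25-B, shETV4-A and shETV4-B in the authors' deposited tables. AC002456.2 overlaps CDK14 on the opposite strand, so its values are uncertain if counting ignored strand.

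For CAMK2D, over 3 tables and 14 candidates that share its absence with shETV4-B, the closest were HIST1H4K (0.10), PRDM8 (0.14) and KLF4 (0.16), from the authors' deposited tables. Small differences from CAMK2D were common in each table. Within 0.1 of it lay 359 genes with shMED25-A, 150 with shMED25-B and 139 with shETV4-A. These distances therefore cannot be set against the larger ones of ANK2. The transcription factor gene KLF4 was at −1.11, −0.78 and −0.66 and PRDM8, of a family of zinc finger regulators, at −0.82, −0.90 and −0.77 with shMED25-A, shMED25-B and shETV4-A in the authors' deposited tables. HIST1H4K, a histone gene, had values of −0.92, −0.75 and −0.67 in the authors' deposited tables, and near-identical histone copies can share its reads.

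**Figure D3:**
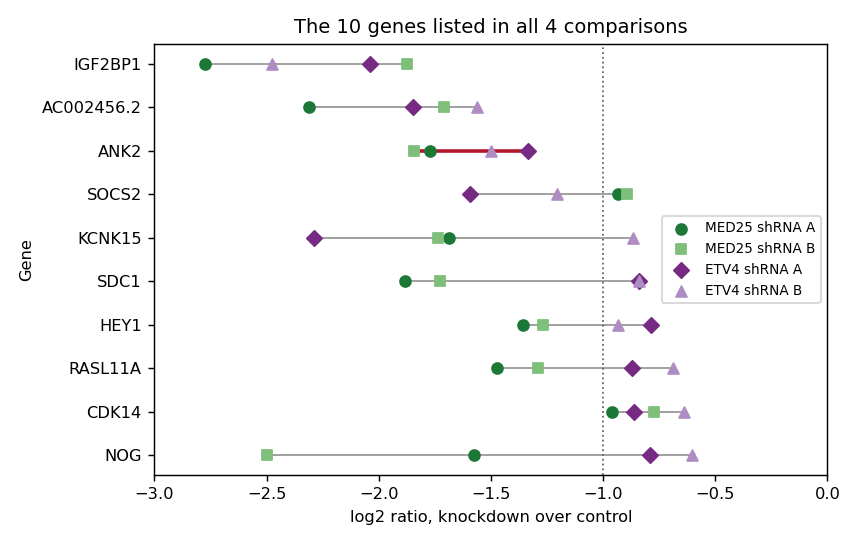
Log2 ratio of knockdown over control (horizontal axis) for the 10 genes listed in all 4 comparisons (vertical axis), with 1 symbol per comparison, a line from the lowest to the highest value of each gene and a dotted line at a 2-fold decrease. IGF2BP1, AC002456.2 and ANK2 lie wholly to the left of the dotted line, and the ANK2 values span 0.51.

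Other genes of the ankyrin-B and calcium/calmodulin kinase pathways were listed in at least 1 table about as often as coding genes in general. Of 119 such genes in 6 lists, without ANK2 and CAMK2D, 9 were in at least 1 table, or 7.56%, against 6.16% of all annotated protein-coding genes. By table they numbered 3 with shMED25-A, 4 with shMED25-B, 2 with shETV4-A and 1 with shETV4-B, or 2.52%, 3.36%, 1.68% and 0.840% of the 119. The matching shares of all coding genes were 3.45%, 1.62%, 2.17% and 0.458%, so the pathway genes lay below with the A shRNAs and above with the B shRNAs, on 1 to 4 genes a table.

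Within the ankyrin family, ANK3, which encodes ankyrin-G of epithelial lateral membranes and axon initial segments, had a value of 47.8% of control, or −1.06, with shMED25-A in the authors' deposited table. It was in no other table, and ANK1, the erythrocyte ankyrin, in none. Of 20 spectrin skeleton genes, 3 were listed. SPTB, a beta spectrin, was at −1.27 with shMED25-A and −0.80 with shETV4-A in the authors' deposited tables. The beta spectrin gene SPTBN5 was at −0.92 with shMED25-B and EPB41L3, of the protein 4.1 family that joins spectrin and actin to the membrane, at −0.72 with shETV4-B in the authors' deposited tables. No spectrin skeleton gene was listed in more than the 2 tables of SPTB.

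Membrane proteins and trafficking partners of ankyrins made up a list of 33 genes. Of these, ITPR3, an inositol trisphosphate receptor that releases calcium from the endoplasmic reticulum, was at −0.96 with shMED25-B in the authors' deposited table. Neither ETV4 table listed any of the 33.

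CAMK2D was the member of its kinase group listed most often, which is a description, since its listing had led to its choice. Of 25 genes for calmodulin-dependent kinases, calmodulin and their inhibitors, the only other one listed was CAMK2B, the beta subunit of the same kinase, at −0.76 with shMED25-B in the authors' deposited table. In that table CAMK2D was at −0.77, so the authors' deposited log2 ratios of the 2 subunits were nearly equal. Such closeness was common with shMED25-B, where the log2 ratios of 150 genes, of 374 listed, lay within 0.1 of that of CAMK2D. The near-equality therefore shows no likeness particular to the 2 subunits. Their scores in that table differed, at 60.5 for CAMK2B and 125 for CAMK2D. CAMK2A, CAMK2G and the inhibitors CAMK2N1 and CAMK2N2 were in no table. Of 26 calcium handling and calcineurin genes, 2 were listed: the store-operated calcium channel gene ORAI1 at −0.83 with shMED25-B and NFATC2, a calcineurin-activated transcription factor, at −1.17 with shETV4-A, in the authors' deposited tables. None of 14 substrates and effectors of the kinase was in a table. With 6.16% of all coding genes in at least 1 table, lists this short allow no reading of their separate counts.

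The 2 genes lie side by side, and joint listing of adjacent genes was counted over the genome. Of 19841 pairs of adjacent protein-coding genes, both members were listed for 38 with shMED25-A, 22 with shMED25-B, 33 with shETV4-A and 2 with shETV4-B. These are 0.192%, 0.111%, 0.166% and 0.0101% of the pairs. Of single protein-coding genes, 3.45%, 1.62%, 2.17% and 0.458% were listed in the same order. A pair counts only if both its genes are listed, so the shares of single genes are not a benchmark for those of pairs. Whether adjacent genes were listed together more often than unrelated genes was not tested. Only 2 pairs were listed together in 3 tables, ANK2 with CAMK2D and the arginine deiminase genes PADI2 with PADI1, and none in 4. Pairs that converge as ANK2 and CAMK2D do made up 4 of the 9 listed together in at least 2 tables, this pair included. They made up 19 of the 84 pairs listed together in at least 1 table. The share of convergent pairs among all 19841 is not given here, and whether convergence goes with joint listing was not tested. ANK2 with CAMK2D was chosen for its joint listing, so the place of this pair among those listed together is a description.

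No protein-coding gene lies between ANK2 and CAMK2D, and the 2 noncoding genes there, RN7SL184P and RNU1-138P, were in no table. The genes do not overlap each other. As drawn in GENCODE 29, ANK2 overlaps 8 smaller annotated genes, 5 of them on the opposite strand, and CAMK2D overlaps none. None of the 8 was in any table. The stretch further out to the most upstream RefSeq start of ANK2 was not searched for overlaps. The sources used here do not say whether counting used strand, so reads from the opposite strand of ANK2 cannot be told apart from its own. GENCODE 29 holds 27 ANK2 transcripts and 14 CAMK2D transcripts, and the tables give 1 value per gene, so isoforms were not told apart.

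The share of surrounding genes listed was above that of all coding genes with shMED25-A, and no surrounding gene was listed with shMED25-B. Of the 10 nearest protein-coding genes on each side, 20 in all, 4 were in the table of shMED25-A, 0 in that of shMED25-B and 1 in each ETV4 table. This is 20% with shMED25-A, against 3.45% of all protein-coding genes, and 5% in each ETV4 table, where 1 gene makes up the share, against 2.17% with shETV4-A and 0.458% with shETV4-B. With shMED25-B 1.62% of all protein-coding genes were listed, and 20 genes are too few to show a share below that. Among the 20 nearest on each side the share with shMED25-A was 10%. These differences were not tested. The directly flanking genes, LARP7 beside ANK2 and ARSJ beside CAMK2D, were in none. PRSS12, the neuronal serine protease neurotrypsin, 7 places beyond CAMK2D, was at −1.70 with shMED25-A in the authors' deposited table, close to ANK2 at −1.77. UGT8, which makes galactosylceramide, 2 places beyond CAMK2D, was at −0.98 with shMED25-A in the authors' deposited table.

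On the ANK2 side, 6 and 7 places away, AP1AR, a regulator of the clathrin adaptor complex in vesicle transport, and FAM241A, listed under its older symbol C4orf32, were also lower. AP1AR was at −0.65 with shMED25-A in the authors' deposited table. FAM241A was at −0.97 with shMED25-A, −0.71 with shETV4-A and −0.59 with shETV4-B in the authors' deposited tables. FAM241A was thus in 3 tables, as many as CAMK2D, and unlike CAMK2D in both ETV4 tables. With shETV4-B it lay just inside the listing limit, as number 97 of 98 by decrease. Its score there was 23.3, where the lowest listed score was 20.1. Across chromosome 4, 5.05% of 752 protein-coding genes were listed with shMED25-A, 1.06% with shMED25-B, 4.12% with shETV4-A and 0.931% with shETV4-B. The shares over all chromosomes were 3.45%, 1.62%, 2.17% and 0.458%, so chromosome 4 lay above them in 3 tables and below with shMED25-B, and the difference was not tested.

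**Figure D4:**
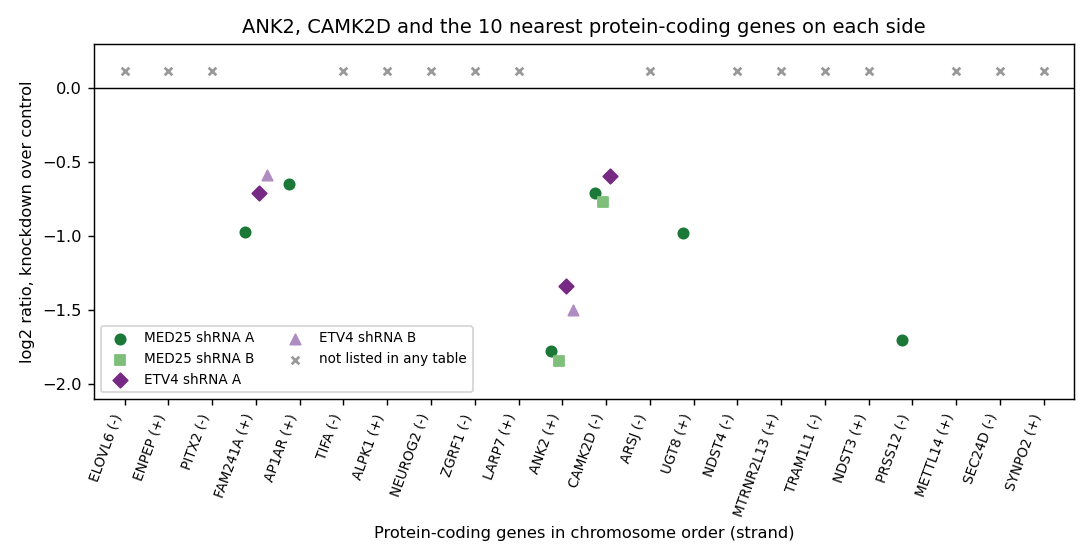
Log2 ratio of knockdown over control (vertical axis) for ANK2, CAMK2D and the 10 nearest protein-coding genes on each side in chromosome order, not to distance (horizontal axis, strand in brackets), with 1 symbol per comparison. Crosses above 0 mark genes in no table and are not values; LARP7 and ARSJ, which flank the pair, are among them, and PRSS12 at −1.70 is the only neighbour near ANK2.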

How the data were processed

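PC3 RNA was sequenced in 17 libraries and, per the submitters' processing notes, aligned to hg19 with Novoalign 3.08.02. For counting, strand use, scaling and test nothing is given in the sources used here, and depth is unknown. No label says whether replicates were separate cultures. The authors deposited 4 tables with a log2 ratio per gene, per the file headers, and an adjusted p on a scale not stated, treated here as a score. MED25 ratios were turned round to read knockdown over control.

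Both genes and all lists were chosen with earlier results of these data known. Named genes are the 2 genes, the targets, listed members of 7 gene lists and neighbours, and the 3 most similar genes per gene; CDK14, NOG, IGF2BP1, PADI1 and PADI2 were added after their values were seen. Of 159 list symbols, 2 older ones matched no gene. Some list members are counted but not reported here by name. Gene type, order and strand came from GENCODE 29, on GRCh38, through Ensembl identifiers, without the Y and mitochondrial chromosomes; retired identifiers make listed shares slightly low. Promoters are from RefSeq (GRCh38.p14). Computations ran in Python 3.11.15 (scipy 1.17.1, pandas 2.3.3, matplotlib 3.10.9, numpy 2.4.6). Ranking and motif search were tested on simulated data. Alternatives were ranking by score, a score of at least 50, protein-coding genes alone, a minimum absolute log2 ratio of 1, 20 neighbours on each side, other distances and a 300-base promoter window.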

Additional observations from a re-analysis of the deposited data

How the results depend on the processing

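No paired analysis was possible because the tables hold no values per library, and for the same reason no replicate could be left out. Ranked by the authors' score in place of size, ANK2 stood at 15.4% of the table from the top with shMED25-A, 10.7% with shMED25-B, 40.8% with shETV4-A and 55.1% with shETV4-B, from 1.40%, 1.34%, 9.09% and 7.14% by decrease. CAMK2D stood at 27.9%, 20.3% and 27.5% with shMED25-A, shMED25-B and shETV4-A, from 65.0%, 50.5% and 98.2%. Among genes with a score of at least 50, ANK2 was at 15.0% with shETV4-A and CAMK2D at 56.5% with shMED25-B. The other 5 ranks stayed within the 95% binomial interval (Wilson) of the first value, as did all 7 among protein-coding genes alone. That interval served only as a fixed yardstick, as ranks in a list are not independent draws, and it is wide for a short table. With shETV4-B it took in a move of ANK2 from 7.14% to 11.5% at a score of at least 50. At a minimum absolute log2 ratio of 1, the spectrin skeleton list kept 1 gene, the ankyrin partners 0, the kinase list 0, the calcium handling list 1 and the chromosome 4 list 2 in any table. At a score of at least 50 the ankyrin partners kept 1 of 2, the spectrin skeleton list 2 of 3 and the chromosome 4 list 4 of 6. FAM241A and UGT8 were the chromosome 4 genes lost, and the other lists kept all their listed genes. With 20 neighbours on each side the numbers listed did not change. By Euclidean distance, HEY1 replaced KCNK15 beside ANK2 and ABI3BP replaced KLF4 beside CAMK2D, and with table medians subtracted the named genes were the same. With 50 bases after the start added, the inner ANK2 window held 5 copies of GGAA in place of 3. The cause was not tested for any of these.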
